A study of Mus musculus with 6 samples.

Results

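Mitochondrial biogenesis in muscle is directed by a short chain of nuclear genes, and 10 of them were followed here through the differentiation of cultured mouse muscle cells. They were chosen by symbol from the gene names of the deposited count tables by a rule that uses no measured value, although earlier results of these data were known when the list was drawn up: the PGC-1 coactivators *Ppargc1a*, *Ppargc1b* and *Pprc1*, the transcription factors *Nrf1* and *Gabpa*, the factors of mitochondrial transcription *Tfam*, *Tfb1m* and *Tfb2m*, and the mitochondrial polymerases *Polg* and *Polrmt*. All 10 were found among the 54525 gene rows, and all 10 passed the filter on low counts that left 16290 genes for testing. RNA was sequenced from C2C12 cells, an immortalised line of mouse myoblasts that stop dividing and fuse into multinucleated myotubes when serum is lowered. Both groups were wild-type (WT) and untreated apart from the medium, with 3 libraries of separate samples each: proliferating myoblasts on day 0 (D0) and myotubes after 5 days of differentiation (D5). By the methods of the study, growth medium held fetal bovine serum, and differentiation medium held a lower share of horse serum. The labels call the cells mouse muscle myoblasts in both groups and give n as cultured cells, so that p-values measure the spread between cultures of 1 cell line.

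The libraries held 25449759 to 40895840 counts on genes, and each D0 library was deeper than each D5 library. Of 8 myotube markers fixed for the check, such as *Myog* and *Ckm*, all 8 were higher at D5, all 5 myoblast markers were lower, and all 8 cell cycle genes were lower. The summed level of the cell cycle genes was 2120 to 2150 counts per 1000000 counts (CPM) at D0 and 111 to 122 CPM at D5. None of 7 fat cell markers passed the filter: their summed level ran from 0.0496 to 0.333 CPM at D0 and from 0.203 to 0.318 CPM at D5, and *Cidec* and *Lep* had no count in any library. Among markers of other cell types, *Tubb3*, which nerve cells also express, went from 220 ± 4.84 to 4.22 ± 0.214 CPM, while the defining markers *Rbfox3* (nerve) and *Ptprc* (blood) had 0 and 1 counts in their highest library. In bulk RNA, fewer cells of a type and less RNA per cell cannot be told apart, and unfused cells in the D5 cultures were not measured separately. The part of these marker levels in the results on the 10 genes was not tested.

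As background, the coactivators PGC-1α (*Ppargc1a*), PGC-1β (*Ppargc1b*) and PRC (*Pprc1*) bind no DNA themselves but dock on transcription factors such as NRF-1, GABPA and the estrogen-related receptors. NRF-1 (*Nrf1*) and GABPA (*Gabpa*, the DNA-binding subunit of nuclear respiratory factor 2) act on promoters of nuclear genes for the respiratory chain and for the mitochondrial transcription machinery. That machinery consists of the RNA polymerase POLRMT, the packaging and transcription factor TFAM and the initiation factor TFB2M. TFB1M, a paralog of TFB2M, methylates mitochondrial ribosomal RNA, and POLG is the catalytic subunit of the DNA polymerase that copies the mitochondrial genome. In muscle, PGC-1α is known for its link to oxidative, fatigue-resistant fibers.

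Because NRF-1 and GABPA act through short DNA words, the proximal promoters were read first. The RefSeq table of gene starts (GRCm38.p6) held a window for 9 of the 10 genes, and *Ppargc1b* had none. Over the 250 bases upstream of each start, both strands were searched for CCGGAAG, a word bound by GABPA and other ETS factors, and for TGCGCA, the core of the NRF-1 site. CCGGAAG was found in *Gabpa* itself, *Tfam*, *Polg* and *Polrmt*, against 6.91% of all 32851 windows. TGCGCA was found in *Tfb2m* and *Polrmt*, against 6.43% of all windows. The 4 stretches of 30 bases that hold the GABPA word are shown to place it in each promoter, on the strand of the gene, 5′ to 3′, with the word in capitals (CTTCCGG is its reverse complement). The starts are those of the RefSeq table, which differ from the GENCODE gene bounds given further on: by those bounds the stretches of *Gabpa*, *Tfam* and *Polg* lie inside the gene, and that of *Polrmt* lies upstream of it. The 4 stretches lay at chr16:84835019-84835048 (plus strand), chr10:71238074-71238103, chr7:79466294-79466323 and chr10:79746607-79746636 (all minus strand).
*Gabpa*: ggagggtaagtgCTTCCGGgtccctcagct
*Tfam*: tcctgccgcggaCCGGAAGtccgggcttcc
*Polg*: ggaggacctcacCCGGAAGtccctctgcac
*Polrmt*: accctaagagcgCTTCCGGcagtcgcagaa

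Counted from the RefSeq start, the word spanned -93 to -87 in *Gabpa*, -47 to -41 in *Tfam*, -38 to -32 in *Polg* and -43 to -37 in *Polrmt*. The upstream windows of *Tfb2m* (chr1:179546277-179546526, minus strand) and *Polrmt* (chr10:79746582-79746831, minus strand) are given whole because they hold the NRF-1 core, at -181 to -176 and at -134 to -129. Capitals again mark the words.
*Tfb2m*: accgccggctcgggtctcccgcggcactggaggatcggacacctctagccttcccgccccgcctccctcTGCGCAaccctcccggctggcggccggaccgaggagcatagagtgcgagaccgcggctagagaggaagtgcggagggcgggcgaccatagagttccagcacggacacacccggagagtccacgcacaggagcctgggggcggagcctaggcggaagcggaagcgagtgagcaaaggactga
*Polrmt*: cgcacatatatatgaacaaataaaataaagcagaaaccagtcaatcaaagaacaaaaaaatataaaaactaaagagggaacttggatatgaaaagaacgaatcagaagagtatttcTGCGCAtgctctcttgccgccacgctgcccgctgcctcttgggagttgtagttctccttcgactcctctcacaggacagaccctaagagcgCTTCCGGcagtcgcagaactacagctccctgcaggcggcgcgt

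The word AAGGTCA of the estrogen-related receptors (4.08% of all windows), the cAMP response element TGACGTCA (1.55%) and the muscle E-box CAGCTG (13%) were in none of the 9 genes' windows. A match is a description of letters and not of binding. Of the 4 genes with CCGGAAG, *Tfam* and *Polrmt* were higher at D5 and *Gabpa* and *Polg* lower. The 2 genes with TGCGCA, *Tfb2m* and *Polrmt*, were both higher, with log2 fold changes of 1.13 and 0.13. Of all genes tested, 42.2% were called higher and 40.8% lower.

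To determine how this set of genes changed on differentiation, D5 was compared with D0 in a fit of all genes tested (edgeR's quasi-likelihood test, Benjamini-Hochberg adjustment over 16290 genes, threshold 0.05). *Tfb2m*, *Tfam* and *Polrmt* were higher in myotubes, *Nrf1*, *Pprc1*, *Ppargc1a*, *Polg* and *Gabpa* were lower, and *Ppargc1b* and *Tfb1m* did not pass the threshold. Among all genes tested, 42.2% were called higher and 40.8% lower, so a call in itself does not set the 3 higher and 5 lower genes apart from other genes. The CPM of the 2 groups did not overlap for 8 of the 10 genes. D5 lay above D0 for 3 of them, against 42.2% of all genes tested, and below D0 for 5, against 41.1%. The median log2 fold change of the 10 genes was -0.099, against 0.0022 over all genes tested. In this fit 9 of the 10 moved by less than 1 on the log2 scale, and *Tfb2m* was the exception. With scaling to the ERCC spike-ins, synthetic RNAs added to the samples, *Nrf1* was the only gene of the 10 past the threshold. The median of all genes tested was then -0.58, with *Nrf1* at -1.34, *Ppargc1a* and *Pprc1* both at -1.03, and *Tfb2m* at 0.56.

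**Figure D1:**
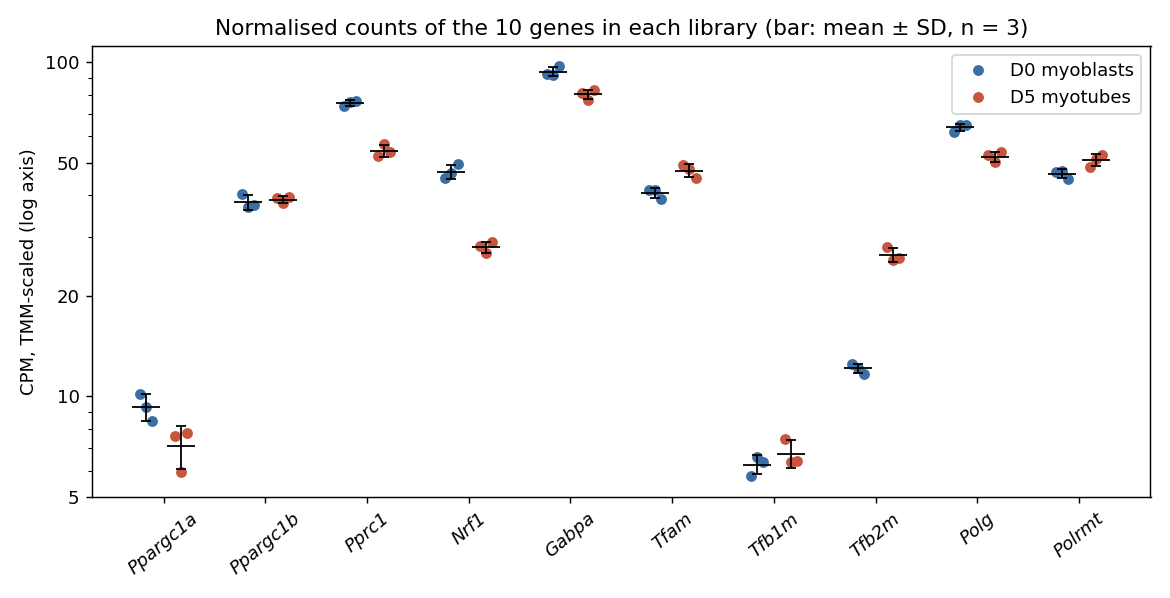
CPM of each of the 10 genes in each library (vertical log axis; points are the 3 D0 libraries in blue and the 3 D5 libraries in red, bars are mean ± SD). The D5 points of *Tfb2m*, from 25.6 to 28.0 CPM, sit above its D0 points, from 11.7 to 12.5 CPM, those of *Nrf1* sit well below D0, and the points of *Ppargc1b* and *Tfb1m* overlap between groups.

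Of the 3 coactivators, *Pprc1* and *Ppargc1a* were lower in myotubes and *Ppargc1b* was not called. *Pprc1* (ENSMUSG00000055491, chr19:46044886-46072915, plus strand) encodes PRC, a coactivator induced by serum in growing cells. It was read at 73.8, 75.9 and 76.7 CPM in the D0 libraries and at 52.3, 56.8 and 53.9 CPM in the D5 libraries. All D5 values lay below all D0 values, and D5 stood at 72.0% of the D0 level. This corresponded to a log2 fold change of -0.47 (SE 0.040, adjusted p = 4.4e-12, edgeR).

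*Ppargc1a* (ENSMUSG00000029167, chr5:51454250-51567726, minus strand) encodes PGC-1α, the coactivator most tied to exercise and to oxidative fibers. It was a low gene throughout, with 340 to 392 counts per D0 library and 146 to 194 per D5 library. Its level was 10.2, 9.32 and 8.44 CPM at D0 and 7.60, 5.92 and 7.79 CPM at D5. The groups did not overlap, but the highest D5 library came within 1 CPM of the lowest D0 library. The log2 fold change was -0.39 (SE 0.098, 95% confidence interval -0.59 to -0.19, adjusted p = 6e-04, edgeR), or 76.3% of the D0 level. It ran from -0.47 to -0.27 when single libraries were left out, with D5 replicate 2, the lowest library, giving the smaller value when left out (adjusted p = 0.014). Counts are per gene, so that the alternative transcripts of *Ppargc1a*, which start at different promoters, were summed.

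*Ppargc1b* (ENSMUSG00000033871, chr18:61298136-61400431, minus strand) encodes PGC-1β, a close relative of PGC-1α with a role in basal mitochondrial content. Its level was 40.3, 36.8 and 37.3 CPM at D0 and 39.2, 37.8 and 39.4 CPM at D5. The D5 libraries lay inside the range of the D0 libraries. The log2 fold change was 0.027, with a 95% confidence interval of -0.068 to 0.12 (adjusted p = 0.59, edgeR), and that interval holds for TMM scaling alone. *Ppargc1b* was called lower when an offset for the GC content and length of each gene was added (-0.36, adjusted p = 1e-07, edgeR). It was also called lower without scaling (-0.65, adjusted p = 8.4e-18, edgeR), a setting that leaves the greater depth of each D0 library in the values. Relative to the median of all genes tested, *Ppargc1b* was at -0.21 with the offset and at 0.026 without scaling.

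The 2 DNA-binding factors were both lower in myotubes, *Nrf1* more than *Gabpa*. *Nrf1* (ENSMUSG00000058440, chr6:30047988-30153458, plus strand) was read at 45.1, 46.5 and 49.5 CPM at D0 and at 28.1, 26.8 and 28.9 CPM at D5. Each D5 library was far below each D0 library, and D5 stood at 59.3% of the D0 level. Its log2 fold change of -0.75 (SE 0.049, adjusted p = 7.4e-15, edgeR) was the lowest of the 10 genes. *Nrf1* was also the gene of the set that passed the threshold under every one of 16 alternative settings, with adjusted p = 0.035 in the least favourable of them, scaling to the ERCC spike-ins.

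*Gabpa* (ENSMUSG00000008976, chr16:84834925-84863779, plus strand) was read at 92.0, 91.9 and 97.2 CPM at D0 and at 81.0, 77.2 and 82.4 CPM at D5. The groups were close but did not overlap. D5 stood at 85.6% of the D0 level, a log2 fold change of -0.22 (SE 0.038, adjusted p = 3.4e-06, edgeR). Of its exonic length, 6.98% is shared with *Atp5j* on the opposite strand, and the sources used here do not say whether the counting used strand.

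Of the 3 mitochondrial transcription factors, *Tfb2m* showed the largest change of the set. *Tfb2m* (ENSMUSG00000026492, chr1:179528055-179546267, minus strand) encodes the factor that opens the mitochondrial promoter with POLRMT. Its level was 12.5, 12.2 and 11.7 CPM at D0 and 28.0, 25.6 and 25.9 CPM at D5. All D5 libraries were above all D0 libraries by more than the spread within either group, a 2.18-fold higher level. The log2 fold change was 1.13 (SE 0.059, 95% confidence interval 1.01 to 1.25, adjusted p = 4.3e-17, edgeR). It was 0.45 without scaling (adjusted p = 2.1e-07, edgeR) and 0.56 with ERCC scaling, where the call was lost (adjusted p = 0.42, edgeR). Of the 50-base words of its exons, 31.9% also occur in the pseudogene *Gm1818*, which had at most 7 counts in any library. How reads that match both places were counted is not stated, and its effect on *Tfb2m* was not tested.

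*Tfam* (ENSMUSG00000003923, chr10:71225464-71238280, minus strand) encodes the protein that coats mitochondrial DNA and bends its promoters. It was read at 41.4, 41.4 and 39.1 CPM at D0 and at 49.2, 48.0 and 45.0 CPM at D5. Every D5 library was above every D0 library, by a 1.17-fold difference in means. The log2 fold change was 0.22 (SE 0.045, adjusted p = 5e-05, edgeR), and it turned to -0.46 without scaling and to -0.33 with scaling to the ERCC spike-ins.

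*Tfb1m* (ENSMUSG00000036983, chr17:3519256-3557781, minus strand), the ribosomal RNA methyltransferase, was among the lowest of the set with 157 to 277 counts per library. Its level was 5.79, 6.58 and 6.38 CPM at D0 and 7.48, 6.37 and 6.39 CPM at D5. The groups overlapped, and D5 replicate 1 was the highest of the 6 libraries. Its log2 fold change of 0.11 did not pass the threshold (95% confidence interval -0.092 to 0.31, adjusted p = 0.31, edgeR). The interval leaves room for a rise of up to 0.31, so at this depth a small change was not detectable.

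The 2 polymerases moved in opposite directions. *Polg* (ENSMUSG00000039176, chr7:79446231-79466362, minus strand), the DNA polymerase, was read at 61.9, 64.8 and 64.8 CPM at D0 and at 52.8, 50.2 and 53.7 CPM at D5. All D5 libraries were below all D0 libraries, at 81.8% of the D0 level. In edgeR's fit this was a log2 fold change of -0.29 (SE 0.041, adjusted p = 1.8e-07, edgeR). *Polg* shares 8.57% of its exonic length with *Fanci* on the opposite strand.

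*Polrmt* (ENSMUSG00000020329, chr10:79736123-79746581, minus strand), the RNA polymerase, was read at 47.1, 47.3 and 44.7 CPM at D0 and at 48.6, 51.4 and 52.7 CPM at D5. The groups did not overlap, but the gap between D0 replicate 2 and D5 replicate 1 was small. In the fit, *Polrmt* had a log2 fold change of 0.13 (SE 0.044, adjusted p = 0.0064, edgeR). The call did not hold without D0 replicate 3, the lowest library, where the value was 0.095 (adjusted p = 0.07). The direction turned to -0.55 without scaling, to -0.43 with ERCC scaling and to -0.14 (adjusted p = 0.0029, edgeR) with the GC and length offset.

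**Figure D2:**
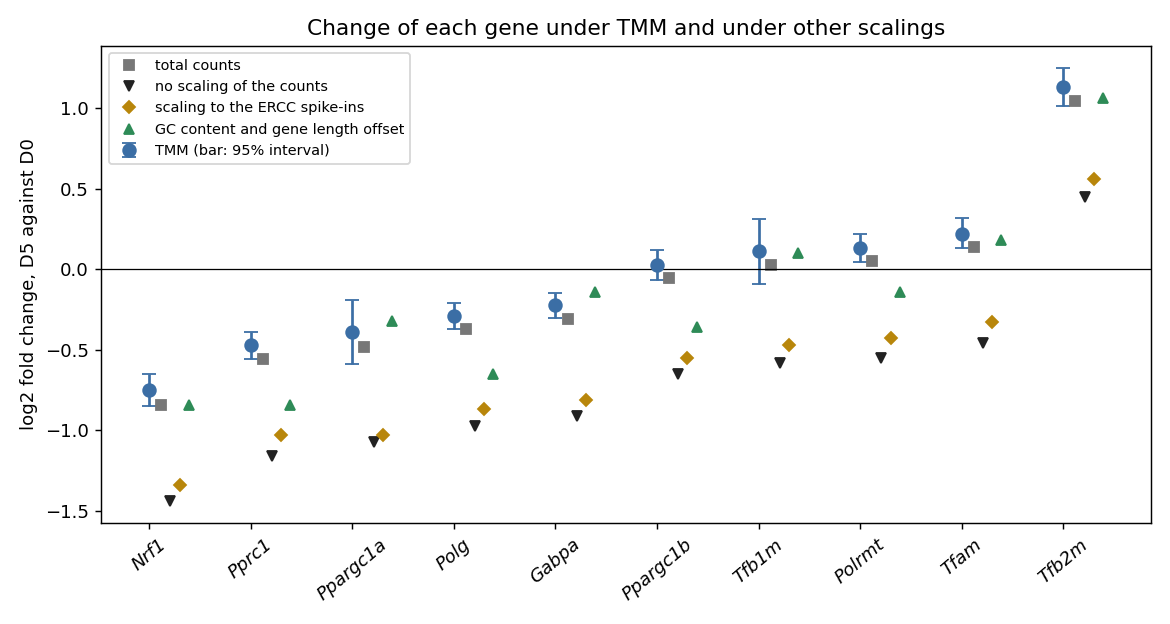
Log2 fold change of each of the 10 genes, D5 against D0 (vertical axis), as circles with 95% confidence intervals under TMM scaling and as other symbols under total counts, no scaling, ERCC scaling and the GC and length offset. *Tfb2m* at 1.13 and *Nrf1* at -0.75 stand farthest from 0, the TMM intervals of *Ppargc1b* and *Tfb1m* include 0, and the values without scaling and with ERCC scaling lie below the TMM value for each gene.

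The scaling of the libraries sets where 0 lies for such small changes. Without scaling, the greater depth of each D0 library stays in the values. Of all calls, 49.2% were lower with TMM scaling, 76.6% without scaling, 67.4% with ERCC scaling and 57.1% with the GC and length offset. The median of all genes tested moved from 0.0022 to -0.68 without scaling, to -0.58 with ERCC scaling and to -0.15 with the GC and length offset. Relative to that median, *Tfb2m* was at 1.12 without scaling, 1.13 with ERCC scaling and 1.21 with the GC and length offset. *Nrf1* was at -0.76, -0.77 and -0.69 in the same order, and *Pprc1* at -0.48, -0.45 and -0.69. *Tfam* was at 0.22, 0.25 and 0.33 above the median. *Gabpa* was at -0.23 in the first and second but at 0.0054 with the GC and length offset, and *Polrmt* was at 0.13, 0.14 and 0.0046. *Ppargc1b* was at 0.026 without scaling, 0.03 with ERCC scaling and -0.21 with the offset, *Ppargc1a* at -0.39, -0.45 and -0.17, and *Polg* at -0.29, -0.30 and -0.50. *Tfb1m*, which had no call under TMM scaling, was at 0.10, 0.10 and 0.25. The position of these genes against the other genes thus moved with that offset. The ERCC share of counts differed within groups, from 0.726% to 0.859% at D0 and from 0.72% to 2.09% at D5.

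Levels of different genes were compared per length, as TPM (transcripts per 1000000 transcripts) from the counts and the GENCODE exonic length. That length merges the exons of all annotated transcripts, and the order of the genes depends on it. It was longest for *Polg* (10742 bases over 18 transcripts) and *Nrf1* (10282 bases over 20 transcripts). *Gabpa* had the highest level of the 10 genes at D0, with 57 ± 2.6 TPM (SD, n = 3), followed by *Pprc1* with 41.6 ± 1.46 TPM. *Polrmt* (34.2 ± 0.778), *Ppargc1b* (33 ± 1.19) and *Tfam* (31.7 ± 0.714 TPM) came next and overlapped from one to the next in this order. Below them were *Polg* (20.6 ± 0.832), *Nrf1* (15.8 ± 0.976) and *Tfb2m* (15 ± 0.313 TPM), the last 2 of which overlapped. *Tfb1m* (6 ± 0.471) and *Ppargc1a* (4.89 ± 0.398 TPM) were lowest.

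At D5 *Gabpa* was still highest with 43.8 ± 2.04 TPM and *Ppargc1a* still lowest with 3.35 ± 0.526 TPM. *Tfb2m* reached 29.4 ± 2.08 TPM and overlapped *Ppargc1b* (30.2 ± 1.15 TPM). *Pprc1* stood at 26.8 ± 0.653 TPM, below *Polrmt* (33.7 ± 0.898) and *Tfam* (33.2 ± 1.97 TPM). On the TPM scale *Tfam* and *Polrmt* overlapped between D0 and D5, and *Ppargc1b* was lower in every D5 library. The summed level of the 10 genes was 256, 260 and 263 TPM at D0 and 237, 223 and 229 TPM at D5.

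**Figure D3:**
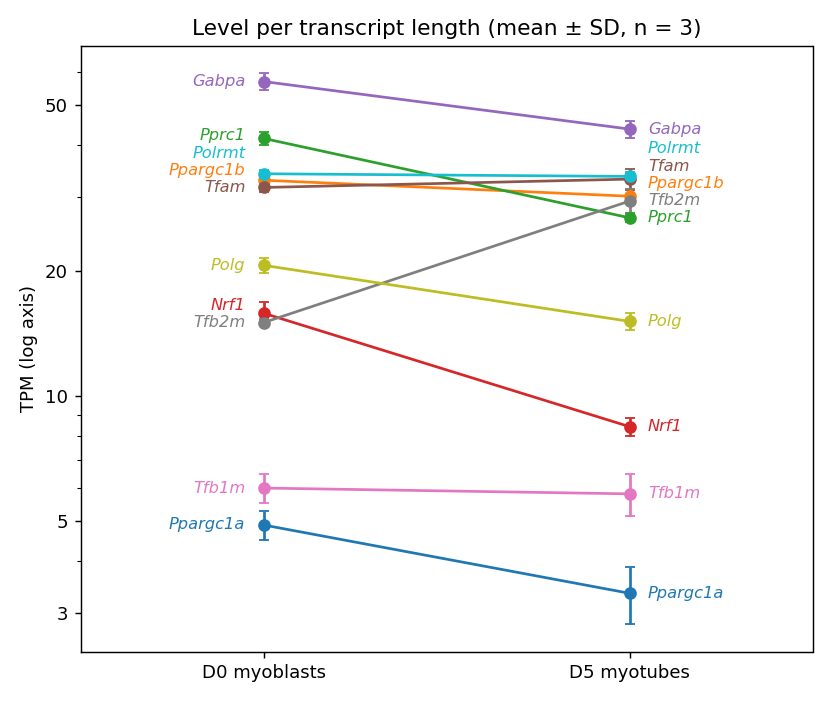
Level of each of the 10 genes per length in TPM (vertical log axis) at D0 and D5, as mean ± SD of 3 libraries joined by a line for each gene. *Gabpa* is highest and *Ppargc1a* lowest in both groups, and the mean of *Tfb2m* goes from 15 TPM, next to *Nrf1*, to 29.4 TPM, next to *Ppargc1b*.

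Within the coactivator family, *Ppargc1a* was the minor member in both groups. Of the summed TPM of the family, *Ppargc1a* held 6.16 ± 0.522% at D0 and 5.54 ± 0.791% at D5. *Ppargc1b* held 41.5 ± 1.38% and 50 ± 1.06%, and *Pprc1* held 52.3 ± 1.79% and 44.5 ± 1.82% (SD, n = 3). Per exonic length, the largest share passed from *Pprc1* in myoblasts to *Ppargc1b* in myotubes. That order rests on the lengths used, 6284 bases for *Pprc1* and 3990 for *Ppargc1b*. In CPM, *Pprc1* stayed above *Ppargc1b* at D5 (54.3 ± 2.25 against 38.8 ± 0.847). The family as a whole was at 78.8 to 80.1 TPM at D0 and 59.3 to 61.3 TPM at D5.

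Ratios of 2 genes within a library do not depend on the scaling of the libraries, and 6 were computed (exact permutation test, two-sided, p-values adjusted over the 6; 3 against 3 libraries cannot go below p = 0.1). *Tfb1m* to *Tfb2m* was 0.359, 0.418 and 0.424 at D0 and 0.207, 0.193 and 0.192 at D5. The means of 0.4 ± 0.0356 and 0.197 ± 0.00855 differed by -1.02 on the log2 scale, without overlap (exact p = 0.1, adjusted 0.15). *Nrf1* to *Gabpa* was 0.271, 0.28 and 0.281 at D0 and 0.192, 0.192 and 0.194 at D5. The difference of -0.53 was many times the spread within either group (exact p = 0.1, adjusted 0.15).

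*Polg* to *Polrmt*, the DNA against the RNA polymerase, was 0.574, 0.597 and 0.631 at D0 and 0.474, 0.426 and 0.445 at D5, a difference of -0.42 without overlap (exact p = 0.1, adjusted 0.15). *Ppargc1a* to *Ppargc1b* was 0.154, 0.153 and 0.137 at D0 and 0.117, 0.0947 and 0.12 at D5, a difference of -0.43 without overlap (exact p = 0.1, adjusted 0.15). The other two ratios overlapped between groups. *Ppargc1a* to *Pprc1* was 0.118 ± 0.0137 at D0 and 0.125 ± 0.0223 at D5 (exact p = 0.8, adjusted 0.8). *Polrmt* to *Tfam* was 1.08 in each D0 library and 0.935, 1.01 and 1.11 at D5, a wider spread about a mean of 1.02 (exact p = 0.4, adjusted 0.48). The ratios are not free of an effect of GC content and length: with that offset the log2 fold changes were -0.32 for *Ppargc1a* and -0.36 for *Ppargc1b*, close to each other, and -0.84 for *Pprc1*, farther from *Ppargc1a* than in the ratio above. For the other pairs that did not overlap, the offset gave 0.098 for *Tfb1m* and 1.06 for *Tfb2m*, -0.84 for *Nrf1* and -0.14 for *Gabpa*, and -0.65 for *Polg* and -0.14 for *Polrmt*.

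**Figure D4:**
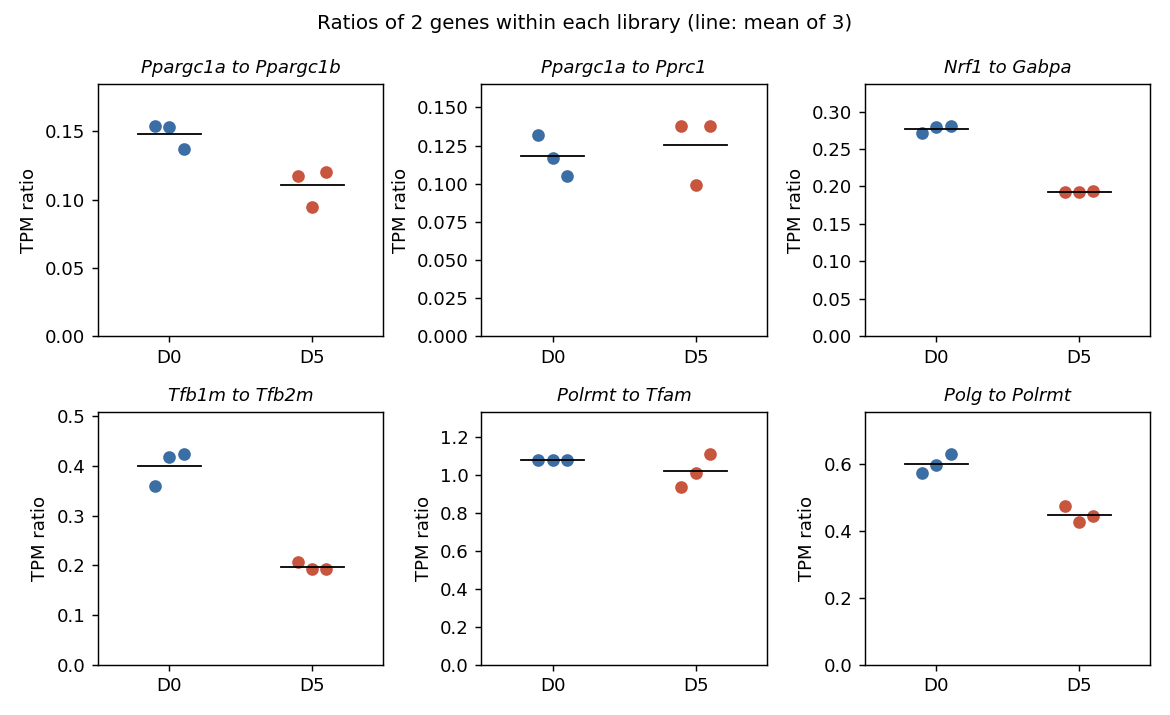
Within-library ratios of TPM for 6 pairs of the 10 genes (vertical axes from 0, points for the 3 D0 and 3 D5 libraries, line at the mean). *Tfb1m* to *Tfb2m*, *Nrf1* to *Gabpa*, *Polg* to *Polrmt* and *Ppargc1a* to *Ppargc1b* are lower in every D5 library, while the other two pairs overlap.

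The partners through which the coactivators and factors act moved in both directions. Of 20 such genes, 17 were tested, 7 were higher, 8 lower and 2 without a call, with a median log2 fold change of -0.041 against 0.0022 over all genes tested. *Esrrb*, *Rxrg* and *Thrb* were too low to test. Over all genes tested, 42.2% were higher and 40.8% lower. Without scaling 5 were higher and 12 lower, with ERCC scaling 3 and 3, and with the GC and length offset 6 and 10. Both genes for the GABPA partner subunit GABPB were lower, as was *Gabpa*: *Gabpb1* went from 28.1 ± 0.551 to 16.9 ± 0.823 CPM (log2 fold change -0.73, adjusted p = 3.1e-13, edgeR). *Gabpb2* went from 67.6 ± 1.68 to 46.4 ± 0.831 CPM (-0.54, adjusted p = 2.2e-13, edgeR). *Hcfc1*, a cofactor of both GABPA and PRC, fell from 337 ± 8.35 to 155 ± 5.90 CPM (-1.12, adjusted p = 4.6e-23, edgeR), and the nuclear receptor *Pparg* from 18.9 ± 0.949 to 7.84 ± 0.777 CPM (-1.27, adjusted p = 7.1e-16, edgeR).

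Both estrogen-related receptor genes tested, through whose products PGC-1α reaches many muscle genes, were higher, but the direction of *Esrra* turned to -0.29 without scaling and to -0.16 with ERCC scaling. *Esrra* went from 34.7 ± 1.17 to 45.7 ± 2.33 CPM (log2 fold change 0.39, adjusted p = 6.6e-09, edgeR). *Esrrg* was counted 7, 13 and 6 times at D0 and 221, 205 and 179 times at D5 (log2 fold change 5.2, adjusted p = 8.4e-21, edgeR). *Perm1*, a muscle regulator downstream of PGC-1 and the estrogen-related receptors, had 0, 1 and 0 counts at D0 and 14, 13 and 12 at D5. With 1 count in all at D0, the ratio of 62.6 had a 95% counting interval of 10.6 to 2530.

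Among 18 genes that modify or induce PGC-1α, 6 were higher and 10 lower, with a median of -0.18 (42.2% higher and 40.8% lower over all genes tested). The counts were 3 and 15 without scaling, 2 and 1 with ERCC scaling, and 5 and 11 with the GC and length offset. *Prkaa2*, a catalytic subunit of the AMP-activated kinase, rose from 0.887 ± 0.145 to 24.3 ± 0.666 CPM (log2 fold change 4.76, adjusted p = 2.8e-27, edgeR). *Lpin1*, which acts with PGC-1α in fat oxidation, rose from 3.82 ± 0.306 to 36.1 ± 0.914 CPM (3.24, adjusted p = 2.2e-27, edgeR). *Creb1*, an activator of the *Ppargc1a* promoter, fell from 89.9 ± 1.00 to 52.7 ± 0.641 CPM (-0.77, adjusted p = 5.8e-18, edgeR), and the acetyltransferase *Kat2b* fell from 114 ± 0.859 to 75.8 ± 1.12 CPM (-0.58, adjusted p = 1.1e-15, edgeR).

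Of 19 other genes of mitochondrial DNA replication and nucleotide supply, 9 were higher, 5 lower and 5 without a call. Their median was 0.11, against 0.0022 over all genes tested, of which 42.2% were higher and 40.8% lower. Without scaling 1 of the 19 was higher and 17 lower, with ERCC scaling 0 and 2. With the GC and length offset 4 were higher and 7 lower, with a median of -0.078 against -0.15 over all genes tested. The accessory subunit of the DNA polymerase, *Polg2*, went from 4.96 ± 0.353 to 5.92 ± 0.580 CPM (log2 fold change 0.26, adjusted p = 0.028, edgeR), while its partner *Polg* was lower. That call did not hold with the GC and length offset (0.17, adjusted p = 0.14, edgeR), and *Polg2* was at -0.43 without scaling and -0.32 with ERCC scaling. The helicase *Twnk* rose from 27.3 ± 0.934 to 35.7 ± 1.60 CPM (0.38, adjusted p = 3e-08, edgeR), but was at -0.30 without scaling, -0.20 with ERCC scaling and 0.033 with the GC and length offset (adjusted p = 0.54, edgeR). The single-strand binding gene *Ssbp1* was at 28.9 ± 0.769 and 30 ± 2.27 CPM without a call (adjusted p = 0.31, edgeR). The nuclease-helicase *Dna2*, which also acts in nuclear replication, fell from 16.9 ± 0.367 to 2.77 ± 0.192 CPM (-2.60, adjusted p = 8.8e-22, edgeR). The nuclease *Exog* fell from 14.4 ± 0.535 to 6.07 ± 0.774 CPM (-1.24). *Rrm2b*, the ribonucleotide reductase subunit of resting cells, rose from 24.4 ± 0.684 to 40.7 ± 0.981 CPM (0.74), and *Endog*, which shares 35.7% of its exonic length with *Spout1* on the opposite strand, rose from 4.11 ± 0.0406 to 8.37 ± 0.431 CPM (1.02).

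Of 27 genes of mitochondrial transcription elongation, termination and RNA processing, 13 were higher, 8 lower and 6 without a call. Their median was also 0.11, against 0.0022 over all genes tested, of which 42.2% were higher and 40.8% lower. *Tefm*, the elongation factor of POLRMT, rose from 9.18 ± 0.376 to 13.2 ± 1.28 CPM (log2 fold change 0.52, adjusted p = 4.4e-07, edgeR), and was at -0.16 without scaling and -0.026 with ERCC scaling. *Hsd17b10*, a subunit of mitochondrial RNase P, rose from 25.4 ± 0.725 to 55.7 ± 2.64 CPM (1.13), and *Mterf1b*, 1 of a pair of near-identical termination factor genes and therefore uncertain, went from 0.914 ± 0.122 to 1.79 ± 0.1 CPM (0.97). *Tbrg4* (FASTKD4), which stabilises mitochondrial messengers, fell from 59.7 ± 0.873 to 31.3 ± 1.85 CPM (-0.93), and the exoribonuclease *Pnpt1* fell from 38.4 ± 0.900 to 25.9 ± 1.35 CPM (-0.57). Without scaling 2 of the 27 genes were higher and 21 lower, and with ERCC scaling 0 were higher and 1 lower. With the GC and length offset 8 were higher and 10 lower, with a median of 0.019 against -0.15 over all genes tested.

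The 13 protein-coding genes of the mitochondrial genome, which POLRMT, TFAM and TFB2M transcribe as long joint transcripts, were not all called in the same direction. Their summed level went from 14100 to 15300 CPM at D0 to 24000 to 26100 CPM at D5. Of the 13 genes, 7 were higher, 4 lower and 2 without a call, against 42.2% higher and 40.8% lower over all genes tested. Without scaling 4 were higher and 7 lower, with ERCC scaling 0 and 3. With the GC and length offset 8 were higher and 2 lower, with a median of 0.67 in place of 0.15. The median of all genes tested was -0.15 with that offset and 0.0022 with TMM scaling alone. *mt-Nd5* rose from 1680 ± 80.5 to 4040 ± 146 CPM (log2 fold change 1.26, adjusted p = 1.4e-23, edgeR), *mt-Nd4* from 873 ± 54.3 to 1890 ± 57.7 CPM (1.11), and *mt-Co1* from 5260 ± 108 to 9440 ± 529 CPM (0.84). *mt-Co2* fell from 17.4 ± 3.49 to 10.2 ± 1.17 CPM (-0.76), and *mt-Atp8* had 26 to 34 counts at D0 and 3 to 8 at D5 (-1.79). With the offset these were -0.33 and -0.86. The levels of *mt-Co1* and *mt-Co2* thus lay far apart although they come from the same joint transcript. Of the 50-base words of *mt-Nd3*, *mt-Nd4l*, *mt-Co2*, *mt-Co3* and *mt-Atp6*, 98.0% to 100% also occur in other annotated genes. With TMM scaling each of these was lower or without a call. The share was 62.2% in *mt-Nd4*, 51.1% in *mt-Co1*, 8.19% in *mt-Nd2*, 7.61% in *mt-Nd5* and 0% in *mt-Nd1*, *mt-Nd6* and *mt-Cytb*. Each of these was higher. The low gene *mt-Atp8*, also at 0%, was lower. How reads with several matches were counted is not stated, and the part of shared words in the values was not tested.

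Of 24 nuclear genes known as targets of the PGC-1, NRF-1, GABPA or estrogen-related receptor pathways, 20 were higher, 3 lower and 1 without a call, with a median log2 fold change of 0.82 against 0.0022 over all genes tested, of which 42.2% were higher and 40.8% lower. *Mb*, the oxygen store of muscle, had 2 to 10 counts at D0 and 4327 to 5074 at D5 (log2 fold change 10.33). On the opposite strand *Apol6* and *Gm49540* together cover 31.9% of its exonic length. *Fndc5*, the precursor of irisin, had 1 to 3 counts at D0 and 295 to 334 at D5 (log2 fold change 7.90, adjusted p = 7.9e-25, edgeR). With at most 3 counts per D0 library, the size of this rise is uncertain. *Tomm20*, an import receptor, fell from 124 ± 3.52 to 76.4 ± 0.389 CPM (-0.70, adjusted p = 1.6e-17, edgeR). *Cpt1b* went from 0.501 ± 0.127 to 0.228 ± 0.131 CPM (-1.12, adjusted p = 0.012, edgeR), with 81.4% of its exonic length shared with *Gm44502* on the same strand. The third lower target was *Vegfa*, a growth factor of blood vessels, at 175 ± 5.37 and 113 ± 5.16 CPM (-0.63, adjusted p = 5.3e-16, edgeR), and *Cycs*, cytochrome c, was at 94.6 ± 3.20 and 93.2 ± 10.3 CPM without a call (adjusted p = 0.70, edgeR). The count of higher targets depended on the scaling: it was 12 of 24, with 9 lower, without scaling, 6 of 24, with 2 lower, with ERCC scaling, and 16 of 24, with 5 lower and a median of 0.61, with the GC and length offset.

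**Figure D5:**
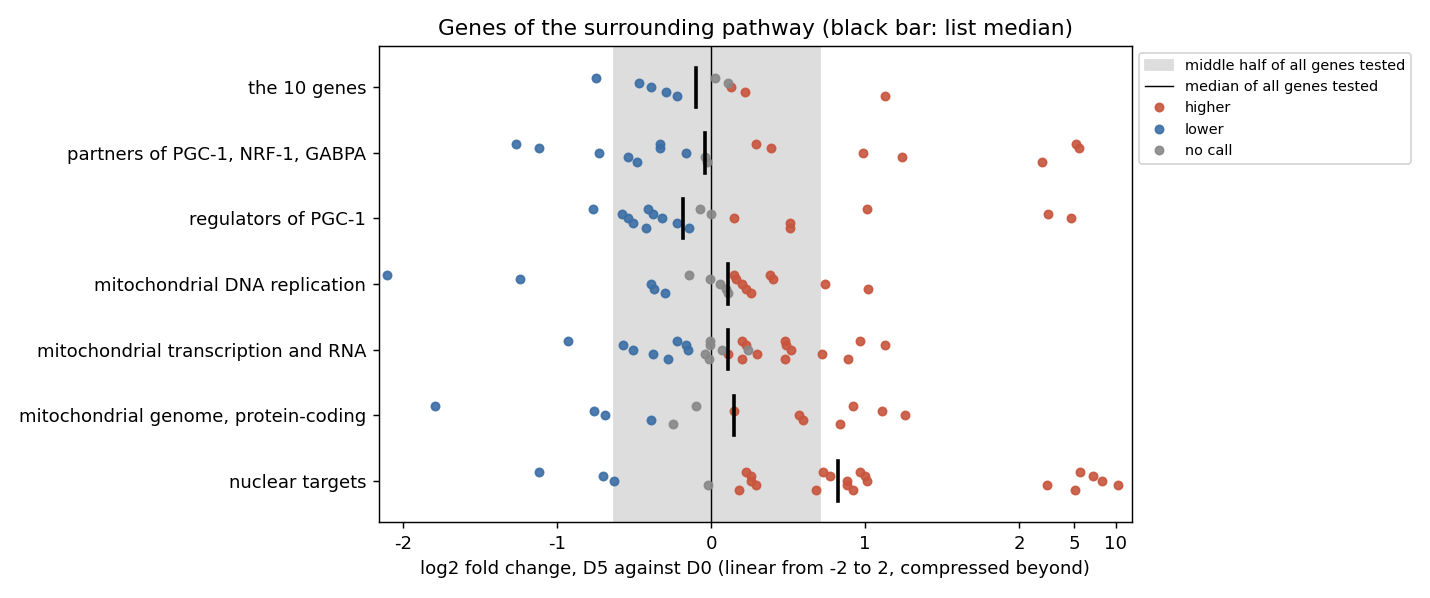
Log2 fold change, D5 against D0, of the 10 genes and of 6 lists of pathway genes (points coloured by call, black bar at the list median, grey band over the central part of all genes tested, from -0.63 to 0.71; the axis is linear from -2 to 2 and compressed beyond). The medians of the 10 genes, the partners, the regulators and the 3 mitochondrial lists lie inside the band, and that of the nuclear targets lies at 0.82.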

How the data were processed

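Total RNA of 6 C2C12 cultures (3 at D0, 3 at D5) was sequenced. Per the labels, reads were aligned to GRCm38 (mm10) with Tophat2 after quality filtering, whereas the methods of the study name HISAT2. The authors deposited raw featureCounts counts per gene (1 table per library, unit counts). The labels also name DESeq2 (1.6.3), whose output was not used here. The strand setting, and what was done with reads that fit several places, are not given in the sources used here. The 92 rows of ERCC spike-ins entered neither library sizes nor tests.

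Counts were tested with edgeR 4.0.16 in R 4.3.3 (TMM scaling, filterByExpr, glmQLFit and glmQLFTest, Benjamini-Hochberg adjustment over 16290 genes, threshold 0.05). CPM used TMM library sizes. TPM used the exonic length of GENCODE M21, to which 99.9% of gene rows matched. Standard errors came from the log2 fold change and the F statistic. The interval of the *Perm1* ratio is exact (Clopper-Pearson) and covers counting error only. Within-library ratios were compared by exact permutation. Scripts were tested on simulated data. Alternatives were upper-quartile, total-count, absent and ERCC scaling, DESeq2 1.42.0, 2 other filters (none, and at least 10 counts in every library), leaving out each library, a replicate block, and a GC and length offset without and with that block.

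The 10 genes and the lists were chosen with earlier results of these data known. The text names the 10 genes, up to 4 genes of a list with the highest and lowest log2 fold change among those past the threshold, and direct partners of the 10 genes; *mt-Co1*, *Vegfa*, *Cycs*, the genes too low to test and the single marker genes were named after their values were seen.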

Additional observations from a re-analysis of the deposited data

How the results depend on the processing

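Across 16 alternatives, *Nrf1* kept its direction and passed the threshold in all, and *Ppargc1a*, *Pprc1*, *Gabpa*, *Tfb2m* and *Polg* in all but ERCC scaling, where the log2 fold changes were -1.03 (adjusted p = 0.12), -1.03 (0.11), -0.81 (0.22), 0.56 (0.42) and -0.87 (0.19). ERCC scaling called 5560 genes in place of 13510 (67.4% lower in place of 49.2%), with 0 of the 10 genes higher and 1 lower, and 5 without overlap between groups. The share of all genes without overlap was computed for TMM scaling only, so the 5 cannot be set against it. Without scaling, 14306 genes were called, 76.6% of them lower, with 1 of the 10 genes higher and 9 lower. That setting leaves the greater depth of each D0 library in the values, and the median of all genes tested was -0.68. Without scaling and with ERCC scaling the direction turned for *Ppargc1b* (-0.65 and -0.55), *Tfam* (-0.46 and -0.33), *Tfb1m* (-0.58 and -0.47) and *Polrmt* (-0.55 and -0.43). With the GC and length offset, alone or with the replicate block, it turned for *Ppargc1b* (-0.36) and *Polrmt* (-0.14), and 2 of the 10 genes were higher and 7 lower. With the offset alone, 5812 of all 16278 genes tested were called higher and 7734 lower (57.1% of the calls), with a median of -0.15. Relative to that median, *Ppargc1b* was at -0.21 and *Polrmt* at 0.0046, so the turn of *Polrmt* was close in size to the shift of all genes. *Ppargc1b* was also at -0.057 with total counts and -0.026 with no filter, and between -0.0076 and 0.053 when single libraries were left out. *Polrmt* lost its call with total counts (0.048), with no filter (0.08) and without D0 replicate 3. The log2 difference between groups in the ratio of *Ppargc1a* to *Pprc1*, 0.075 with all libraries, ran from -0.0076 to 0.23 when single libraries were left out. Beyond the depth left in without scaling, which cause lies behind these shifts was not tested.

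Leaving out single libraries gave 13236 to 13599 called genes. The replicate block gave 13558 called genes, with 3 of the 10 genes higher and 5 lower. Same-numbered D0 and D5 samples correlated at 0.027, 0.104 and 0.047 in their deviations from the group means. Each correlated best with its own number, but not all passed 0.1, so the numbers were not taken as pairs. At the depth of the low genes *Ppargc1a* and *Tfb1m*, changes of the size of their intervals are the limit.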
